A study of Arabidopsis thaliana with 8 samples.

Results

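The messenger RNAs of the first steps of ethylene perception were followed in dark-grown Arabidopsis thaliana seedlings: the 5 ethylene receptors, the receptor partner RTE1 and the kinase CTR1. The 7 genes were taken by locus from the 36799 genes counted. The rule itself uses no measured value, but it was set with earlier results of these data known. They are ETR1 (AT1G66340), ERS1 (AT2G40940), ETR2 (AT3G23150), ERS2 (AT1G04310), EIN4 (AT3G04580), RTE1 (AT2G26070) and CTR1 (AT5G03730). All 7 passed the filter on low counts and were among the 20193 genes tested.

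Ethylene is a gaseous hormone that dark-grown seedlings answer with a short, thick hypocotyl, a short root and a tight apical hook. Its receptors are membrane proteins of the endoplasmic reticulum that signal in air and are shut off when ethylene binds, with copper as a cofactor. The signalling receptors keep CTR1 active, and CTR1 phosphorylates EIN2 and so holds the response back. When ethylene switches the receptors and CTR1 off, the carboxyl end of EIN2 reaches the nucleus and the transcription factors EIN3 and EIL1 accumulate. ETR1 and ERS1 form subfamily I, with a complete histidine kinase domain, and ETR2, ERS2 and EIN4 form subfamily II, whose kinase domain is degenerate. ETR1, ETR2 and EIN4 carry a receiver domain that ERS1 and ERS2 lack. RTE1 is a membrane protein that promotes signalling by ETR1.

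The seedlings were double mutants in subunits of PDC, the pyruvate dehydrogenase complex, which turns pyruvate into acetyl-CoA. There were 2 such lines. The line e1-2-2 e2-2 #17 is called e1e2 here, and e2-2 e3-2-2 #67 is called e2e3. Both carry e2-2, each is given under a single line number, and no wild-type libraries were analysed here. Seedlings stood for 3 days in the dark on MS plates with sucrose under hydrocarbon-free air, and then received 10 ppm ethylene or went on in that air, with 2 libraries in each of the 4 groups. The labels give neither the hours of ethylene nor whether replicates were separate plantings, so p-values measure only the spread between these libraries. The series title concerns nuclear PDC and transcription directed by EIN2. The comparisons below address how the perception genes answered ethylene in each line and whether the lines differed.

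Whole seedlings were sequenced as poly(A)-selected RNA, with 11522823 to 18601837 counted read pairs a library. Counts were tested with edgeR's quasi-likelihood test, and a gene was called at a Benjamini-Hochberg adjusted p under 0.05 over all genes tested. As a check of the lines, the PDC subunit gene E1 ALPHA (AT1G59900) had 262, 280, 300 and 279 counts in the e1e2 libraries and 3200, 4096, 3098 and 3072 in the e2e3 libraries. The subunit gene mtLPD2 (AT3G17240) had 1565, 1659, 2215 and 2187 counts in e1e2 and 381, 496, 521 and 581 in e2e3. Each line was thus low in a different subunit gene. The labels do not name the loci of the mutations.

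The sequence just before each gene's annotated start is shown for all 7 genes, because 5 of them rose strongly with ethylene and 2 hardly did. Each line gives 160 bases from the TAIR10.1 genome of RefSeq, whose coordinates matched those of the Araport11 genes on TAIR10 in the count tables, written 5′ to 3′ along the gene. Capitals mark the letters ATGTA or ATGNANCT on either strand (the reverse complement is marked where the match is on the other strand), patterns read from known binding sites of EIN3, the transcription factor at the end of the pathway.
ETR1, chr1:24734002-24734161, plus strand: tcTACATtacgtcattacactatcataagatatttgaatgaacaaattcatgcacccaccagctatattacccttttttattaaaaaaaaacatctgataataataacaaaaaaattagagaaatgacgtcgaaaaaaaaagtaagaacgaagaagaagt
ERS1, chr2:17087327-17087486, minus strand: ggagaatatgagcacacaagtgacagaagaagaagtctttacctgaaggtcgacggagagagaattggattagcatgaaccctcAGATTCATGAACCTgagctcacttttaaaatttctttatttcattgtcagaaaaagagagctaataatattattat
ETR2, chr3:8254399-8254558, plus strand: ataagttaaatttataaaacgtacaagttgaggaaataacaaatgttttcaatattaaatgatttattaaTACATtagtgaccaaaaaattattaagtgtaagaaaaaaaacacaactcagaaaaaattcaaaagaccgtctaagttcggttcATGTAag
ERS2, chr1:1157814-1157973, minus strand: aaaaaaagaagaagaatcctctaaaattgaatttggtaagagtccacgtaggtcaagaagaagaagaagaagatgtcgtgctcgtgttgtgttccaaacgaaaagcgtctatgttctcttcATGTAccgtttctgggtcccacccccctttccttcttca
EIN4, chr3:1238631-1238790, minus strand: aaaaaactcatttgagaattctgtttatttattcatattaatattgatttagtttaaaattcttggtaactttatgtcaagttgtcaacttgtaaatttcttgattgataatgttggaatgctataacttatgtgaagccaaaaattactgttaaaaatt
RTE1, chr2:11107189-11107348, minus strand: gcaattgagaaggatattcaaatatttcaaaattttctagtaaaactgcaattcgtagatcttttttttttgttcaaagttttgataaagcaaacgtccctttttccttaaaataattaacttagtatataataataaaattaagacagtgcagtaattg
CTR1, chr5:979850-980009, minus strand: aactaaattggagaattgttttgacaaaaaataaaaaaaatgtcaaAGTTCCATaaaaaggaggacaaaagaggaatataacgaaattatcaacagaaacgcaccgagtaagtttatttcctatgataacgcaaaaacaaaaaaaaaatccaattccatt

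The search covered 250 bases before each start, and all the matches found lay within the 160 shown. ETR2 held 2 matches to ATGTA, 1 of them in the last bases before the start, and ETR1 and ERS2 held 1 each. ERS1 held 2 overlapping matches to ATGNANCT, 1 on each strand, and CTR1 held 1. EIN4 and RTE1 held neither pattern, and none of the 7 held GCCGCC, the core bound by ethylene response factors. Of the 27443 protein-coding genes with such a window, 52.0% held ATGTA, 12.5% held ATGNANCT and 1.9% held GCCGCC. At least 2 matches stood in 20.2% of windows for ATGTA and in 1.0% for ATGNANCT. The 250-base windows of ERS1 and EIN4 reached into a neighbouring gene, which began 238 and 222 bases away. A match is a run of letters and not a shown binding site, and the lack of one in RTE1, which changed most, concerns this window alone.

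Ethylene raised all 7 mRNAs in e1e2, ETR1 and EIN4 by small margins that depended on the tool or on single libraries, where 18.3% of the genes tested were called higher and 20.9% lower. In e2e3 it raised 5 of the 7, ERS1, ETR2, ERS2, RTE1 and CTR1, where 20.3% of all genes were called higher and 23.6% lower. With depth scaled by library size alone, these calls over all genes turned to 5220 higher and 3492 lower in e1e2 (3694 and 4217 in the TMM scaling used throughout), and to 5874 higher and 3773 lower in e2e3 (4109 and 4767). The median log2 change of the 7 genes was 1.37 in e1e2 and 1.24 in e2e3, against 0.00957 and 0.00738 over all genes, and the 5 strong risers changed by 1.04 to 2.28. Only 2.44% of all genes in e1e2 and 2.26% in e2e3 were at least 2-fold higher. In bulk seedlings, a change in the number of cells that express a gene and a change of its RNA per cell cannot be told apart.

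**Figure D1:**
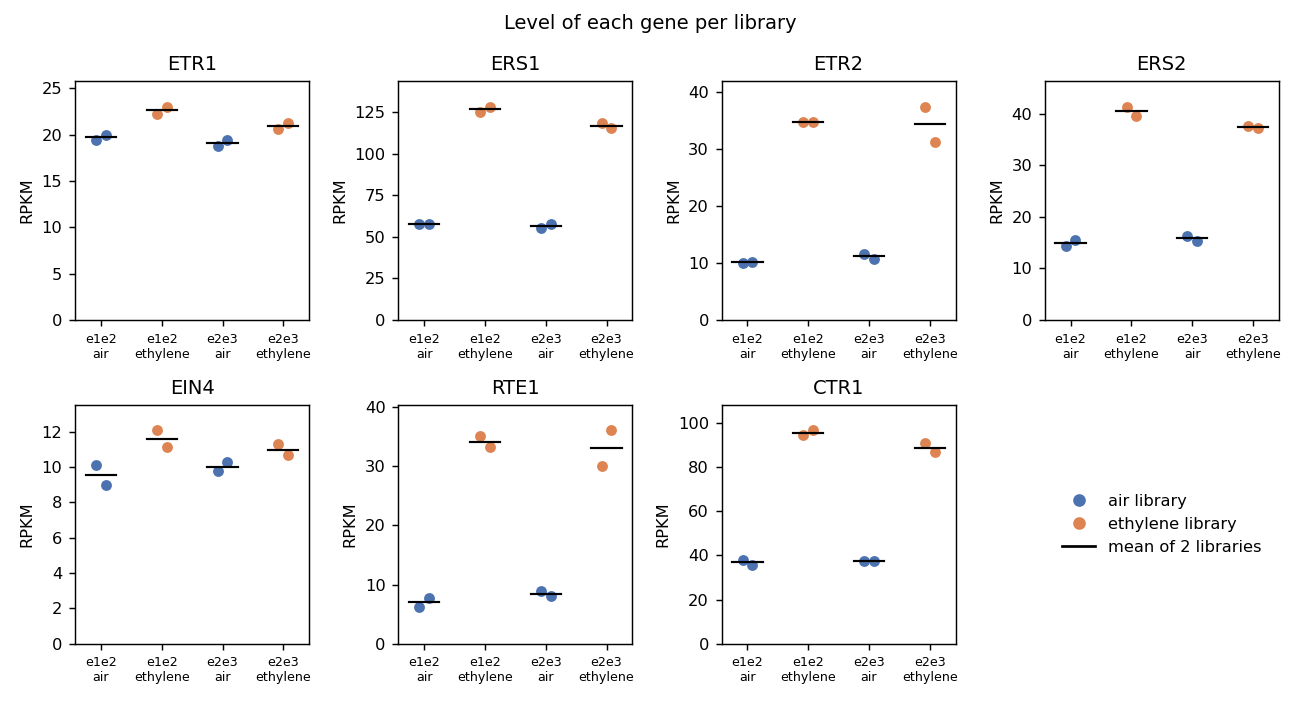
Level of each of the 7 genes, in RPKM (y axis, from 0), in the 8 libraries (x axis, by line and treatment). Points are libraries and bars are the means of 2 libraries. ERS1, ETR2, ERS2, RTE1 and CTR1 lie far apart between air and ethylene in both lines, while ETR1 stays between 18.7 and 23.0 RPKM and EIN4 between 8.98 and 12.1 RPKM.

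Among the subfamily I receptors, ERS1 is the one that lacks the receiver domain. Its counts were 1583 and 1776 in air and 4518 and 4534 in ethylene in e1e2, and 1874 and 2502 in air and 4117 and 4025 in ethylene in e2e3. Per exon length and depth this was 57.6 RPKM ± 0.0235 (SD, n = 2) in air against 126.8 ± 2.11 in ethylene in e1e2, and 56.7 ± 1.81 against 116.9 ± 2.17 in e2e3. Both ethylene libraries of each line stood above both air libraries, with no overlap. ERS1 rose 2.20-fold in e1e2 (log2 change 1.14 ± 0.04 SE, edgeR adjusted p = 2.54e-71) and 2.06-fold in e2e3 (1.04 ± 0.04, adjusted p = 7.86e-67). It lies at chr2:17084321-17087326 on the minus strand, and 56 of its exonic bases (2.31%) fall under AT2G40935 on the other strand, where unstranded counting cannot tell the genes apart.

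ETR1, the founding receptor with an active histidine kinase, was nearly flat beside it. It had 610 and 704 counts in air and 916 and 930 in ethylene in e1e2, and 724 and 956 in air and 820 and 849 in ethylene in e2e3. Scaled by depth and length, its level was 19.43 and 19.99 RPKM in air and 22.2 and 23.0 RPKM in ethylene in e1e2, and 18.7 and 19.4 against 20.6 and 21.3 RPKM in e2e3. The libraries of the treatments did not overlap in either line, but the gap was small. ETR1 was 1.15-fold higher in e1e2 (log2 change 0.20 ± 0.06, adjusted p = 0.00698) and 1.10-fold higher in e2e3 (0.14 ± 0.06, adjusted p = 0.066), which did not pass. Over 14 alternatives the adjusted p in e1e2 ranged from 0.000226 to 0.075: the call was lost with DESeq2 (adjusted p = 0.075), without e1e2 air replicate 1 (edgeR adjusted p = 0.0629) and without e1e2 ethylene replicate 2 (adjusted p = 0.075). In the authors' deposited tables ETR1 has an adjusted p of 0.161 in e1e2 and 0.325 in e2e3. It lies at chr1:24734162-24737756 on the plus strand, with 38 exonic bases (1.37%) under AT1G66345.

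Of subfamily II, ETR2 changed most. ETR2, at chr3:8254559-8257888 on the plus strand, had 368 and 414 counts in air and 1667 and 1631 in ethylene in e1e2. In e2e3 it had 523 and 611 counts in air and 1729 and 1448 in ethylene. Its level was 10.1 RPKM in both air libraries and 34.7 RPKM in both ethylene libraries of e1e2, and 11.6 and 10.6 in air against 37.4 and 31.2 in ethylene in e2e3, with no overlap. ETR2 rose 3.44-fold in e1e2 (log2 change 1.78 ± 0.07, edgeR adjusted p = 7.4e-62) and 3.09-fold in e2e3 (1.63 ± 0.06, adjusted p = 1.08e-60). The 2 ethylene libraries stood further apart in e2e3 than in e1e2.

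ERS2, the subfamily II receptor with no receiver domain, followed it. ERS2, at chr1:1154740-1157813 on the minus strand, had 421 and 508 counts in air and 1594 and 1493 in ethylene in e1e2, and 592 and 704 against 1398 and 1389 in e2e3. In RPKM it stood at 14.3 and 15.4 in air and 41.4 and 39.5 in ethylene in e1e2, and at 16.4 and 15.3 against 37.6 and 37.2 in e2e3, with no overlap of air and ethylene. ERS2 rose 2.71-fold in e1e2 (log2 change 1.44 ± 0.06, edgeR adjusted p = 2.55e-59) and 2.37-fold in e2e3 (1.25 ± 0.06, adjusted p = 2.9e-53).

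EIN4, the remaining receptor of subfamily II and one that has the receiver domain, changed little, as ETR1 did. EIN4, at chr3:1235209-1238630 on the minus strand, had 381 and 380 counts in air and 598 and 541 in ethylene in e1e2, and 453 and 609 against 539 and 511 in e2e3. Its RPKM were 10.1 and 8.98 in air and 12.1 and 11.2 in ethylene in e1e2, and 9.76 and 10.3 against 11.3 and 10.7 in e2e3, so that air and ethylene did not overlap in either line but lay close together. The change was 1.22-fold in e1e2 (log2 change 0.29 ± 0.08, edgeR adjusted p = 0.0017) and 1.09-fold in e2e3 (0.13 ± 0.08, adjusted p = 0.171), which did not pass. The e1e2 call was lost without e1e2 air replicate 2 (log2 change 0.20, adjusted p = 0.104) and without e1e2 ethylene replicate 1 (0.23, adjusted p = 0.0659). DESeq2 gave an adjusted p of 0.0453, and the range over 14 alternatives was 9.3e-05 to 0.104. In the authors' deposited tables EIN4 has an adjusted p of 0.115 in e1e2 and 0.487 in e2e3. With depth scaled by library size alone, the e2e3 changes of ETR1 (0.22, adjusted p = 0.00187) and EIN4 (0.21, adjusted p = 0.0166) also passed, in a scaling that moves the median of all genes up to 0.0897 in e2e3. ETR1 in e2e3 passed as well without e1e2 air replicate 1 (adjusted p = 0.0291).

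RTE1 showed the largest change of the 7 genes in both lines. RTE1, at chr2:11105605-11107188 on the minus strand, had 87 and 122 counts in air and 643 and 597 in ethylene in e1e2, and 152 and 178 against 531 and 640 in e2e3. Its RPKM went from 6.22 and 7.78 in air to 35.0 and 33.2 in ethylene in e1e2, and from 8.83 and 8.11 to 30.0 and 36.0 in e2e3, far apart in both lines. It rose 4.84-fold in e1e2 (log2 change 2.28 ± 0.11, edgeR adjusted p = 4.46e-53) and 3.91-fold in e2e3 (1.97 ± 0.10, adjusted p = 3.75e-50). Of all genes tested, 0.376% in e1e2 and 0.451% in e2e3 had a larger rise. RTE1 also had the fewest counts of the 7 genes in air and so the widest errors.

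CTR1, the Raf-like kinase that acts directly below the receptors, rose as well. CTR1, at chr5:974360-979849 on the minus strand, had 1397 and 1480 counts in air and 4562 and 4572 in ethylene in e1e2, and 1703 and 2166 against 4234 and 4050 in e2e3. In RPKM this was 37.9 and 35.8 in air and 94.4 and 96.6 in ethylene in e1e2, and 37.6 and 37.5 against 90.9 and 86.7 in e2e3, with no overlap. It rose 2.59-fold in e1e2 (log2 change 1.37 ± 0.04, edgeR adjusted p = 8.78e-84) and 2.36-fold in e2e3 (1.24 ± 0.04, adjusted p = 1.3e-78). The negative regulator and 3 of the 5 receptors thus rose together in both lines. Of all genes, 1.26% in e1e2 and 1.42% in e2e3 had a larger rise than CTR1, against 25.7% and 34.3% for ETR1.

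Markers of organs moved with ethylene too. The summed level of 10 root markers, led by PYK10, was 9939 to 10270 CPM (counts scaled to library depth) in e1e2 air and 6553 to 6580 in e1e2 ethylene, and 11770 to 11900 against 7428 to 7443 in e2e3, with none of the 10 at 0. PYK10 made up most of this sum, at 9503 and 9193 CPM in air against 5972 and 5922 in ethylene in e1e2. The other 9 root markers together held 769.0 and 745.3 CPM in air against 608.0 and 630.1 in ethylene in e1e2, and 899.6 and 897.1 against 729.4 and 718.9 in e2e3. Among them CASP5 fell most, from a mean of 195.9 to 95.5 CPM in e1e2 and from 226.4 to 108.5 in e2e3. SHR, SCR, RHD6 and MYB36 passed in neither line. The median log2 change of the 10 was -0.11 in e1e2 and -0.14 in e2e3. Of these markers 5 of 10 were called lower in e1e2 and 6 of 10 in e2e3, and none higher. Over all genes 20.9% were called lower in e1e2 and 23.6% in e2e3. The 2 markers of dark-grown shoots, PORA and PORB, summed to 3472 to 3662 CPM in air and 4272 to 4274 in ethylene in e1e2, and to 3210 to 3289 against 4287 to 4427 in e2e3. The 5 seed markers summed to 2693 to 2878 CPM in air and 1682 to 1871 in ethylene in e1e2. In e2e3 they summed to 3125 to 3608 in air and 2868 to 3011 in ethylene. All 5 were called lower in e1e2 and 3 in e2e3. CRA1 and CRU3, with means of 1629 and 1192 CPM in e2e3 air, did not pass in e2e3 (log2 change -0.07 and -0.19). The 4 flower markers held at most 9 counts together in any library. The part of these shifts in the changes of the 7 genes was not tested.

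**Figure D2:**
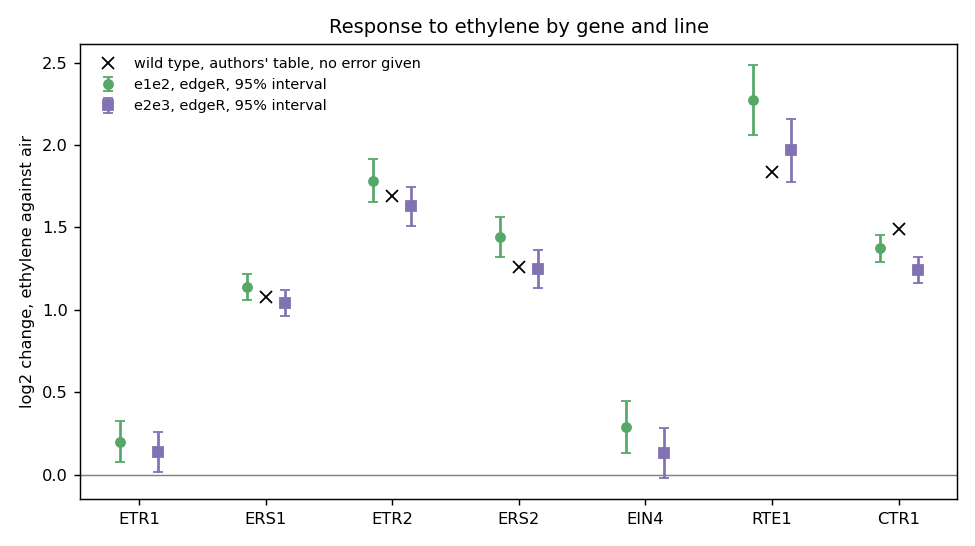
Log2 change with ethylene against air (y axis) of the 7 genes (x axis) in e1e2 (circles) and e2e3 (squares), with 95% intervals from edgeR, and the authors' deposited wild-type value (crosses, 5 genes, no error given). RTE1 is highest at 2.28 in e1e2 and 1.97 in e2e3, ETR1 and EIN4 lie near 0, and each e2e3 estimate lies below its e1e2 estimate.

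The response of none of the 7 genes differed between the lines in the test of that difference (e2e3 minus e1e2, edgeR), in which 1.54% of all genes were called higher and 1.27% lower. The estimate was negative for all 7, meaning a smaller rise in e2e3, from -0.06 for ETR1 to -0.31 for RTE1, with a median of -0.16 against -0.0136 over all genes. For CTR1 it was -0.13 (95% interval -0.25 to -0.01, unadjusted p = 0.0274, adjusted p = 0.269), and for ERS2 -0.19 (-0.37 to -0.02, unadjusted p = 0.0276, adjusted p = 0.27). These 2 genes were the only ones with an unadjusted p under 0.05, and DESeq2 called none of the 5 to which it gave an adjusted p (not EIN4 or RTE1).

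For the other 5 genes the 95% interval of the difference included 0. It ran from -0.62 to 0.00 for RTE1, from -0.34 to 0.03 for ETR2, from -0.21 to 0.02 for ERS1, from -0.38 to 0.06 for EIN4 and from -0.24 to 0.11 for ETR1, all on the log2 scale. Differences inside these intervals remain compatible with the data, so the lack of a call does not show that the lines responded alike. The estimate for ETR2 moved with the ethylene libraries of e2e3, from -0.29 without replicate 1 to -0.03 without replicate 2. For RTE1 it moved with the air libraries of e1e2, from -0.14 without replicate 1 to -0.49 without replicate 2, and nearly as far with the ethylene libraries of e2e3, from -0.18 without replicate 1 to -0.45 without replicate 2. The 7 estimates come from the same 8 libraries and do not count as 7 separate observations.

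In air none of the 7 genes was called different between the lines (edgeR), which does not show equal levels. Over all genes, 9% were called higher and 5.83% lower in e2e3. The adjusted p ranged from 0.218 for RTE1 to 0.834 for ERS1, and none of the 7 had an unadjusted p under 0.05. RTE1 had the largest estimate, 0.26 higher in e2e3 on the log2 scale with a 95% interval from -0.01 to 0.53. With depth scaled by library size alone, 1185 genes were called higher and 1756 lower, against 1818 and 1177 in the scaling used throughout, and none of the 7 was called. Of the 10 root markers, 6 were called higher in e2e3 than in e1e2 in air, and 6 in ethylene. Over all genes, 9% were called higher in air and 4.24% in ethylene.

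In ethylene, ERS1 was lower in e2e3 than in e1e2 by a small margin, where 4.24% of all genes were called higher and 2.32% lower. Its libraries stood at 125.3 and 128.3 RPKM in e1e2 and at 118.4 and 115.4 in e2e3, without overlap, and the log2 difference was -0.12 ± 0.04 (edgeR adjusted p = 0.0359). The call was lost in 10 of 14 alternatives, among them DESeq2 (adjusted p = 0.193), another scaling within edgeR (0.0561) and leaving out any of the 4 ethylene libraries (0.0789 to 0.363) or either e2e3 air library (0.0557 and 0.0561). CTR1 was nearest to it, at 94.4 and 96.6 RPKM in e1e2 and 90.9 and 86.7 in e2e3 (log2 difference -0.11 ± 0.04, adjusted p = 0.072), and passed in 4 of the 14 alternatives. The other 5 genes did not pass, with adjusted p from 0.212 for ERS2 to 0.915 for ETR2. With library size alone, 606 genes were called higher and 798 lower, against 857 and 468, and both ERS1 and CTR1 were called lower.

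The order of the 7 genes by level per length was the same in air in both lines: ERS1, CTR1, ETR1, ERS2, ETR2, EIN4 and RTE1. In e1e2 air the means ran from 57.6 RPKM for ERS1 and 36.9 for CTR1 through 19.7 for ETR1, 14.9 for ERS2, 10.1 for ETR2 and 9.54 for EIN4 to 7.0 for RTE1. The libraries of ETR2 and EIN4 overlapped there, and no other neighbours in the order overlapped in air in either line. In ethylene ETR1 dropped from the third place to the sixth, and the order became ERS1, CTR1, ERS2, ETR2, RTE1, ETR1 and EIN4 in both lines. The e2e3 means in ethylene were 116.9, 88.8, 37.4, 34.3, 33.0, 21.0 and 11.0 RPKM in that order. ETR2 and RTE1 overlapped in ethylene in both lines, and ERS2 and ETR2 overlapped in e2e3.

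The summed receptor level rose with that of its main members, and its makeup shifted away from the receptors that hardly changed. The 5 receptors summed to 111.8 RPKM ± 0.432 (SD, n = 2) in air and 236.2 ± 0.667 in ethylene in e1e2, and to 112.8 ± 1.16 and 220.6 ± 6.79 in e2e3. ETR1 made up 17.6% of the sum in air and 9.58% in ethylene in e1e2, and 16.9% and 9.52% in e2e3. EIN4 went from 8.53% to 4.92% in e1e2 and from 8.89% to 4.98% in e2e3.

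The shares that grew were those of ETR2 and ERS2, with a smaller shift for ERS1. ETR2 went from 9.01% to 14.7% in e1e2 and from 9.87% to 15.5% in e2e3, and ERS2 from 13.3% to 17.1% and from 14.0% to 17.0%. ERS1 held 51.5% of the sum in air and 53.7% in ethylene in e1e2, and 50.3% and 53.0% in e2e3, so it supplied more than any other receptor in every library. Subfamily I as a whole fell from 69.2% to 63.3% in e1e2 and from 67.2% to 62.5% in e2e3, while the 2 receptors without a receiver domain went from 64.8% to 70.8% and from 64.3% to 70.0%. Air and ethylene libraries did not overlap within either line for any of these shares. The shares follow from the levels already tested and got no test of their own. They are shares of mRNA, and no protein was measured.

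**Figure D3:**
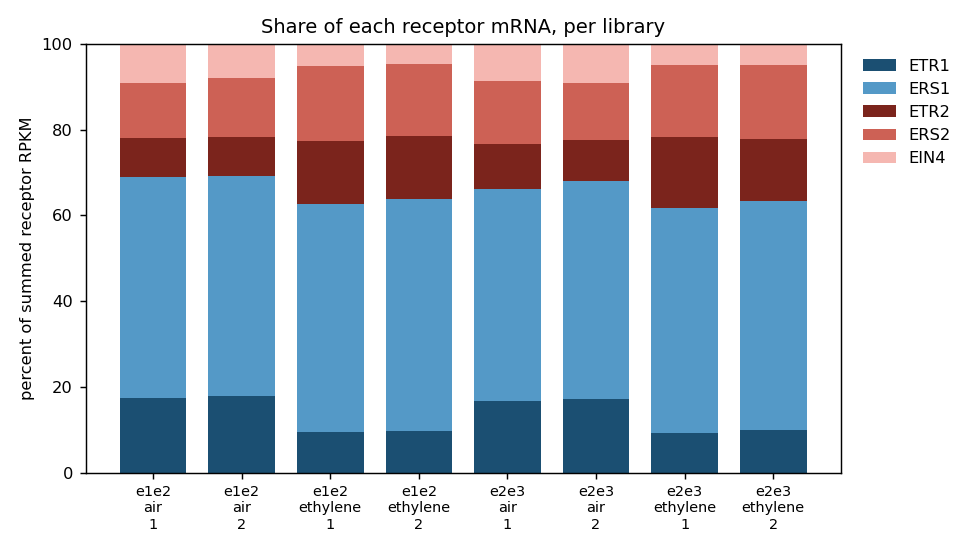
Share of each receptor in the summed receptor RPKM (y axis, percent, from 0 to 100) in each of the 8 libraries (x axis), blue for subfamily I and red for subfamily II. The ETR1 segment shrinks from 16.7% to 17.8% in the air libraries to 9.16% to 9.87% in the ethylene libraries, and ERS1 holds 49.5% to 54.2% in all 8.

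Beside their receptors, the partners shifted unequally. CTR1 stood at 0.330 of the receptor sum in air and 0.404 in ethylene in e1e2, and at 0.333 and 0.403 in e2e3, on the RPKM scale. RTE1 stood at 0.355 of the ETR1 level in air and at 1.51 times that level in ethylene in e1e2, and at 0.445 and 1.57 in e2e3. The mRNA of RTE1 was thus below that of ETR1 in all 4 air libraries and above it in all 4 ethylene libraries.

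The authors' deposited table of ethylene-responsive genes also gives values for wild type, with no error. It lists 1242 genes, all with at least a 2-fold change in wild type, and holds ETR2, ERS1, ERS2, RTE1 and CTR1 but neither ETR1 nor EIN4. In the authors' deposited table the log2 change in wild type, e1e2 and e2e3 is 1.69, 1.78 and 1.63 for ETR2 and 1.08, 1.14 and 1.05 for ERS1. The authors' deposited table gives 1.26, 1.44 and 1.25 for ERS2, 1.84, 2.28 and 1.97 for RTE1, and 1.49, 1.37 and 1.25 for CTR1 in the same order. ETR2, ERS1, ERS2 and RTE1 thus had a larger value in e1e2 than in wild type, RTE1 also in e2e3, and CTR1 a smaller one in both mutants. Of the 507 rising genes in the authors' deposited table, 80% had a smaller change in e1e2 than in wild type and 83.4% in e2e3, in a list chosen by the wild-type change. Of the 506 with a value in both mutants, 49.6% had a smaller value in e2e3 than in e1e2 in the authors' deposited table, as did all 5 of the perception genes in it. These differences from wild type were not tested.

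The genes whose profile over the 8 libraries lay closest to each of the 7 were taken by the root mean square distance of centred log2 CPM. ERS2 and CTR1 were among the 3 closest of each other, at a distance of 0.066. ETR2 lay closest to TBL41 (0.0419) and then ARGOS (0.0729), itself a gene of receptor regulation described below, and CYP78A7. RTE1 lay closest to HB1 (0.101), followed by AT5G02760 and ERF2. ERS1 was closest to Rap2.6L, SEH and GRF7, ERS2 to AT5G02540 before CTR1 and UMAMIT34, and CTR1 to AT5G44260 and AT1G33790 before ERS2. ETR1 was closest to PSL4, AT3G45630 and AT4G36210, and EIN4 to XPO1A, AT5G56730 and FY. The libraries, and hence the air and ethylene contrast, are shared by all these profiles. By Pearson correlation instead, 1 of the 3 nearest genes was shared for ETR2, RTE1 and CTR1, and 0 for the other 4.

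Among 11 genes known to act on the receptors, 10 were tested. In e1e2 these gave 3 calls higher and 2 lower, and in e2e3 they gave 3 of each direction. Over all genes 18.3% were called higher and 20.9% lower in e1e2, and 20.3% and 23.6% in e2e3, so these counts are near the background. Those that rose were ARGOS (log2 change 1.87 ± 0.06 in e1e2 and 1.64 ± 0.05 in e2e3), its relative ARL (2.08 ± 0.05 and 1.88 ± 0.05) and OSR1, proteins of a family that dampens ethylene sensitivity. OSR1 had 3 and 2 counts in air and 125 and 124 in ethylene in e1e2, a ratio of 40.7 with a 95% counting interval from 17.2 to 126, and 4 and 3 against 86 and 82 in e2e3, a ratio of 26.5 (12.6 to 67). AT2G41225 was too low to be tested, with 0 counts in all 4 air libraries, 10 and 9 in e1e2 ethylene and 2 and 4 in e2e3 ethylene. RAN1, the copper transporter that loads the receptors, changed by -0.23 ± 0.04 on the log2 scale in e1e2 and by -0.40 ± 0.04 in e2e3. The cytochrome b5 gene CB5-D, whose product works with RTE1, fell by 0.18 ± 0.05 and 0.15 ± 0.05. CB5-B fell by 0.24 ± 0.07 in e2e3. Of 14 alternatives, 2 in e1e2 and 3 in e2e3 lost the call of CB5-D and 4 lost that of CB5-B, DESeq2 and library size alone among them in e2e3. RTH, the RTE1 relative, did not pass in either line, nor did TPR1, CPR5 or CB5-E.

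Below CTR1, 5 of 10 genes rose in e1e2 with 1 falling, and 6 of 10 rose in e2e3 with 3 falling, beside 18.3% higher and 20.9% lower over all genes in e1e2 and 20.3% and 23.6% in e2e3. EIN2, the substrate of CTR1, rose by 0.63 ± 0.04 in e1e2 and 0.46 ± 0.04 in e2e3 on the log2 scale. The F-box genes EBF2 (0.85 ± 0.04 and 0.73 ± 0.04) and EBF1 (0.39 ± 0.05 and 0.13 ± 0.05), whose products remove EIN3, rose in both lines. The call of EBF1 in e2e3 (edgeR adjusted p = 0.0371) was lost in 4 of 14 alternatives: with DESeq2 (adjusted p = 0.196), without e2e3 air replicate 2 (0.146), and without e2e3 ethylene replicate 1 (0.0937) or 2 (0.118). ETP1, an F-box gene whose product removes EIN2, rose by 0.41 ± 0.10 and 0.47 ± 0.10, and its relative ETP2 by 0.58 ± 0.17 in e2e3, a call lost in 2 of 14 alternatives. EIL2 rose 1.59 ± 0.33 and 1.58 ± 0.30 from at most 23 counts in air. The falls were small and depended on the processing. EIL1 changed by -0.15 ± 0.05 in e1e2 (edgeR adjusted p = 0.00891, lost in 5 of 14 alternatives) and by -0.12 ± 0.05 in e2e3 (0.0301, lost in 9). In e2e3, EIN3 changed by -0.10 ± 0.04 (edgeR adjusted p = 0.0228) and XRN4 by -0.13 ± 0.05 (0.0235), each lost in 6 of 14 alternatives, among them DESeq2 (adjusted p = 0.124 and 0.169) and library size alone (0.689 and 0.428). The EIN3 protein is known to be controlled mainly through its stability.

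Kinases and phosphorelay genes related to the receptors and CTR1 are set beside the same shares over all genes. These were 18.3% called higher and 20.9% lower in e1e2, and 20.3% and 23.6% in e2e3. With so few genes in each list, the counts of calls are given without a reading. Of 6 other histidine kinases 5 were tested: HK1 rose (0.31 ± 0.09 and 0.35 ± 0.09), none fell in e1e2, and HK2, HK4 and HK5 fell in e2e3, by 0.26 ± 0.06, 0.31 ± 0.06 and 0.45 ± 0.12. CKI1 had at most 2 counts in a library. Of 4 genes further along the phosphorelay, AHP1 rose (1.22 ± 0.09 and 1.00 ± 0.09) and the response regulator ARR2 fell by 0.56 ± 0.08 in e2e3. Of 5 Raf-like kinases related to CTR1, AT4G24480 rose by 1.40 ± 0.05 in e1e2 and 1.09 ± 0.05 in e2e3, beside 1.37 and 1.24 for CTR1. In e2e3, AT5G11850 fell by 0.30 ± 0.06 and SIS8 rose by 0.19 ± 0.05, and neither passed in e1e2. Leaving out single libraries or using DESeq2 lost the call of HK1 in 2 of 14 alternatives in e1e2 and 1 in e2e3, and those of HK2 and SIS8 in 1 each. Of all these pathway genes, EIN2, EBF1, ARR2 and AT4G24480 passed the test of a different response between the lines (edgeR). Each had a smaller or more negative value in e2e3. Over all genes, 1.54% were called higher and 1.27% lower in that test. EIN2, EBF1 and ARR2 lost the call in 11 of 13 alternatives and AT4G24480 in 4, and DESeq2 gave ARR2 no adjusted p. A call in 1 line alone shows no difference for the others.

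**Figure D4:**
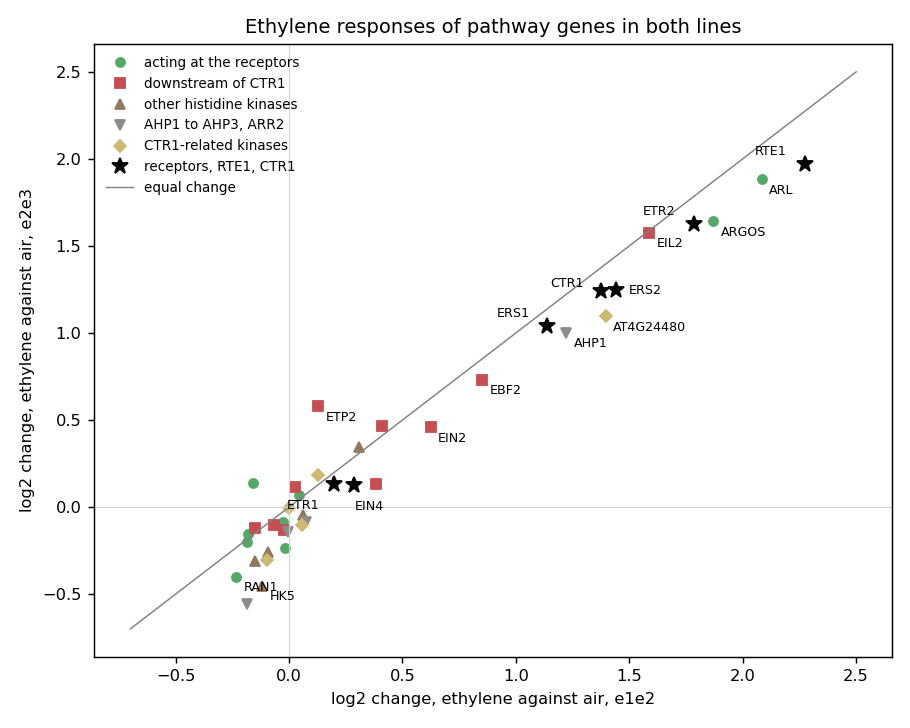
Log2 change with ethylene in e1e2 (x axis) and in e2e3 (y axis) of the 7 genes (stars) and of the other tested pathway genes by list, without OSR1, whose fitted change rests on 2 to 4 counts in each air library. The line marks equal change. ERS1, ETR2, ERS2, RTE1 and CTR1 lie among the genes furthest up, with ARL at 2.08 and 1.88 and ARGOS at 1.87 and 1.64, and all 7 stars lie below the line.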

How the data were processed

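The authors deposited raw counts, each the number of read pairs assigned to a gene. Per the file headers they were made with featureCounts 2.0.1 on Araport11 genes, paired and unstranded, and the submitters' processing notes also name TAIR10, STAR, Trim Galore and DESeq2. Read pairs over several genes are left out by the program's defaults. The authors' deposited DESeq2 tables give log2 changes and p-values, and values taken from them are named as theirs. The members and all lists were chosen with earlier results of these data known.

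All 8 libraries entered 1 edgeR 4.0.16 fit of 4 groups in R 4.3.3 (TMM, filterByExpr by group, robust quasi-likelihood F-test, Benjamini-Hochberg over 20193 genes). It has 4 residual degrees of freedom and a median prior of 218, so the p-values rest mostly on spread shared between genes (common biological coefficient of variation 2.75%). A standard error is the log2 change divided by the square root of F. RPKM are counts per 1000 exon bases over the TMM-scaled library size in the usual way, and intervals on counts cover counting error only.

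DESeq2 1.42.0, other scalings, no filter, fits of fewer groups, a replicate block and leaving out each library were alternatives. Named genes were the 7, their 3 nearest profiles, the pathway lists and, as the check of the lines, PDC subunits. Symbols came from the RefSeq table of TAIR10.1, which held 36632 of 36799 loci. For the sequences, 99.5% of those genes had the same start and end in both annotations, and 98.40% of 52991 introns read GT to AG on the reference. The fit was also run on simulated counts, drawn with the common biological coefficient of variation for every gene. They lack the spread particular to each gene in these data. Figures were drawn with matplotlib 3.10.9.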

Additional observations from a re-analysis of the deposited data

Results flagged for a closer look

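For 4 pathway genes outside the 7, the ethylene response itself differed between the lines in edgeR's test of the difference (e2e3 minus e1e2, log2). AT4G24480, a Raf-like kinase gene related to CTR1, rose less in e2e3, by -0.3017 (adjusted p = 0.00394), and kept the call in 9 of 13 alternatives (adjusted p from 0.00262 to 0.17). It was lost without e1e2 air replicate 1 (adjusted p = 0.0513), e1e2 ethylene replicate 2 (0.0961), e2e3 air replicate 1 (0.17) or e2e3 ethylene replicate 2 (0.0581). ARR2 differed by -0.3713 (edgeR adjusted p = 0.0421, 0.0489 to 0.242 over the alternatives that gave one). EBF1 differed by -0.2542 (0.0419, over 13 alternatives 0.00281 to 0.468) and EIN2 by -0.1662 (0.0437, 0.0293 to 0.292), each keeping the call in 2 alternatives. ARR2 kept it only with the DESeq2 size factors in edgeR, and DESeq2 itself gave ARR2 no adjusted p. AT4G24480 was higher in e2e3 than in e1e2 in air (log2 difference 0.24, edgeR adjusted p = 0.000675). Its difference in ethylene did not pass (-0.07, adjusted p = 0.462). EBF1 was lower in e2e3 in ethylene (-0.26, edgeR adjusted p = 6.49e-05) and did not pass in air (-0.01, adjusted p = 0.95). EIN2 and ARR2 passed in neither. None of the 7 perception genes passed the test of the difference of responses, in which 1.54% of all genes were called higher and 1.27% lower.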

How the results depend on the processing

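ERS1, ETR2, ERS2, RTE1 and CTR1 kept their rise and their call in both lines in all 14 alternatives tried. Over 5 comparisons the 7 genes had 483 alternative values, of which 456 kept direction and call, 15 lost a call, 7 gained one and 5 changed sign. The sign changes were all in values that did not pass: EIN4 in air (-0.00682 without e1e2 air replicate 2), CTR1 in air (-0.0209 with library size alone, -0.0146 without e1e2 air replicate 2), ETR2 in ethylene (0.107 without e2e3 ethylene replicate 2) and RTE1 in ethylene (0.0817 without e2e3 ethylene replicate 1). With a library left out, the log2 difference between the lines ranged from -0.00682 to 0.146 for EIN4 and from -0.0146 to 0.0508 for CTR1 in air, and from -0.152 to 0.107 for ETR2 and from -0.185 to 0.0817 for RTE1 in ethylene. The number of the 7 called lower in e2e3 in ethylene, 1 here, was 0 with the DESeq2 size factors, no filter, DESeq2 or the replicate block, 2 with library size alone or only the groups compared, and 0 to 2 with a library left out.

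DESeq2 called fewer genes over the genome: 2148 higher in e1e2, 2571 higher in e2e3, 140 and 80 higher and lower for the difference of responses, 908 and 514 between the lines in air and 440 and 118 in ethylene. Library size alone gave 1185 higher in air and 798 lower in ethylene. With a library left out, the counts ranged from 122 to 350 higher and 98 to 226 lower for the difference, 1039 to 1787 higher in air, and 428 to 1063 higher and 202 to 562 lower in ethylene. Of the other listed genes, those that fell in e2e3 were 6 with library size alone or DESeq2 and 6 to 11 with a library left out. Those whose response differed were 2 with the DESeq2 size factors or library size alone, 1 without the filter, with DESeq2 or with the replicate block, and 0 to 2 with a library left out. Deviations between replicates were nearly uncorrelated between the groups over all genes tested (correlations from -0.0299 to 0.000911). All genes weighed alike in this, those of few counts included, so it cannot show whether the replicate numbers pair the libraries. The replicate block changed the call of ERS1 in ethylene (edgeR adjusted p = 0.054) and of no other of the 7 genes. The causes were not tested. The standard errors of the difference of responses, from 0.06 for ERS1 to 0.16 for RTE1 on the log2 scale, bound what 2 libraries a group can show.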
